A study of Mus musculus with 16 samples.

Results

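Mast cells and basophils are rare granulocytes that store histamine, proteases and proteoglycan in granules and carry the high-affinity receptor for immunoglobulin E (IgE). The transcripts described here are 10 genes of that program, chosen by symbol from 23420 rows in each of the 2 deposited tables: the nuclear factor and LIM domain genes Gata2, Lmo4 and Csrp3, the IgE receptor genes Fcer1a and Ms4a2, the granule protease genes Cma1, Mcpt8, Prss34 and Cpa3, and Hdc, which encodes the enzyme that makes histamine. All 10 were found in both tables. In the bone marrow, mast cell and basophil precursors arise from progenitors that overlap with those of granulocytes and monocytes. GATA2 is a zinc finger transcription factor that binds GATA motifs and is needed for stem cells and for mast cells and basophils. Signals from the IgE receptor, which is built from an alpha chain (Fcer1a), a beta chain (Ms4a2) and a shared gamma chain, release the granules.

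RNA was measured in 2 progenitor populations that were sorted from Kit-enriched bone marrow of mice aged 40 weeks. The multipotent progenitors (MPP) were Lin-, cKit+, Sca1+, CD48+ and CD150- cells, and granulocyte-monocyte progenitors (GMP) as Lin-, cKit+, Sca1-, CD150- and CD16/32+ cells. Each population came from 4 mice labelled WT, with the genotype Tet2fl/fl (both Tet2 alleles floxed), and 4 mice labelled Tet2KO, with the genotype Tet2-/-, and 3 mice of each genotype gave both populations. TET2 oxidizes methylated cytosine, and the comparison asks which transcripts differ between progenitors with and without it. The labels describe the Tet2 deficiency as one of hematopoiesis and name no Cre driver.

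The authors' deposited tables give, for each gene, the mean normalized count over the 8 libraries of a population, a log2 fold change (Tet2KO relative to WT) with its standard error (SE), and hold no values per library, so the levels in single mice and the overlap between groups were not analysed here. A gene was called at an adjusted p under 0.05. Adjusted p-values of single genes are the authors', from DESeq2 over all genes tested in the population. A gene was tested when its mean was at least 10 and it had not been marked as an outlier, a mark that removes its p-value. The genes of Sca1 and CD16 differed in the direction of the gates. Ly6a, which encodes Sca1, had a mean of 266.2 in MPP and 19.5 in GMP, and Fcgr3, which encodes CD16, of 19.3 and 525.2, in the authors' deposited tables. Slamf1, which encodes CD150, had 26.7 and 3.77 there, though both gates were CD150-. Cd48, gated as positive in MPP only, had 1026 in MPP and 1270 in GMP. The populations were normalized separately, so such means compare only roughly. Genes of the lineage markers differed. The T cell gene Cd3e had a mean of 0.666 in MPP and 0.250 in GMP there, but Itgam had 840.6 and 572.4 and Ptprc 3977 and 3172. Itgam transcripts were therefore not absent from the sorted cells. Ptprc was counted as a whole gene, which cannot single out its B220 form, the one stained as a lineage marker. Its means therefore do not check the sort. Tet2 itself had a log2 fold change of 0.35 (adjusted p = 0.000409, SE 0.0748) in GMP and 0.44 (adjusted p = 0.00551, SE 0.0992) in MPP in the authors' deposited tables. This value covers the whole gene and not the deleted part, so it does not check the labels. Tet2KO therefore means the libraries with that label throughout.

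The upstream sequences of 5 of the genes are shown because the results turn on them: Cma1 and Ms4a2 had the lowest fold changes, Fcer1a is the partner chain of Ms4a2, Cpa3 was the most abundant, and Mcpt8 lies in the same protease gene cluster as Cma1 but had a fold change near 0. Each run gives the 250 bases before the transcript start on the gene's own strand, from RefSeq (GRCm38, the assembly of mm10). Capitals mark the forms AGATAA and TGATAA of the GATA motif, searched on both strands. Forms that end in G, such as AGATAG, were not searched.
Cma1 (chr14:55944676-55944925, mm10, minus strand): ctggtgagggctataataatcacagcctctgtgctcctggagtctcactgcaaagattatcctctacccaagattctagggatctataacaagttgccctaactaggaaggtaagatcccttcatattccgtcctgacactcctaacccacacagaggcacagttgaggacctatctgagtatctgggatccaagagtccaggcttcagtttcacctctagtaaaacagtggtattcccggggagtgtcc
Ms4a2 (chr19:11623720-11623969, mm10, minus strand): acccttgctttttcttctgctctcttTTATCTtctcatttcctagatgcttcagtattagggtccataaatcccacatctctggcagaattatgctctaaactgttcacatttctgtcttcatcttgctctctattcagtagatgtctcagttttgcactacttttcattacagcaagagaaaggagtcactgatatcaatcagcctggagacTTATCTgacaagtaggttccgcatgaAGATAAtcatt
Fcer1a (chr1:173227230-173227479, mm10, minus strand): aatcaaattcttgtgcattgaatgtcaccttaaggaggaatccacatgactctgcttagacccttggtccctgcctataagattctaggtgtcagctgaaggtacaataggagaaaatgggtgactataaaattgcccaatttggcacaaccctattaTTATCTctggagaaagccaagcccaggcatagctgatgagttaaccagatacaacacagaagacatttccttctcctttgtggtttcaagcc
Cpa3 (chr3:20242182-20242431, mm10, minus strand): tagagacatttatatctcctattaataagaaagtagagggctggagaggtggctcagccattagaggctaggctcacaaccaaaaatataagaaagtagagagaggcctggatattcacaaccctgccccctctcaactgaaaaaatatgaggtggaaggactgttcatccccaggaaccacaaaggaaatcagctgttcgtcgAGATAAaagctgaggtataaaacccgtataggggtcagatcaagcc
Mcpt8 (chr14:56085198-56085447, mm10, minus strand): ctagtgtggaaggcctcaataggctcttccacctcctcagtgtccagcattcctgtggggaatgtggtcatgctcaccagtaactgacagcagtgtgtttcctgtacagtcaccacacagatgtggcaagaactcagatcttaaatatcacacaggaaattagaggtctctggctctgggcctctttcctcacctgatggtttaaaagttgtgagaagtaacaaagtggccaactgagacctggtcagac

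A capital TTATCT is AGATAA on the other strand. The RefSeq table had 14 such windows for the 10 genes, and the forms searched occurred in 4 windows of 4 genes, namely Ms4a2, Cpa3, Fcer1a and Prss34. Of 32851 windows of the same length across the genome, 16.6% held either motif, 9.99% AGATAA and 7.94% TGATAA. The Ms4a2 window held 3 matches, ending 218, 31 and 5 bases before the start. The Cpa3 match ended 40 bases, the Fcer1a match 86 bases and the Prss34 match 25 bases before the start. No match lay in the windows of Cma1, Mcpt8, Hdc, Gata2, Lmo4 or Csrp3, which says only that these letters are not in those windows. Forms that were not searched do occur in some of these windows. The Cma1 window holds ctatct, which is AGATAG on the other strand, a Csrp3 window holds agatag, and the Hdc window holds tgatag. The windows also differed in CpG sites, the dinucleotide in which cytosine is methylated. Fcer1a and Mcpt8 had 0 CpG sites in 250 bases, Ms4a2 had 1, Cma1 had 2 and Cpa3 had 3, against a median of 6 over all windows, while the windows of Gata2 held 22 and 24 and those of Lmo4 25 to 44.

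Most members that could be ranked in both populations ranked higher in GMP than in MPP, and Gata2 ranked slightly lower. Levels were set per kb of merged exon length and ranked within each population among genes with a mean of at least 10, since the tables were normalized separately. Cpa3, the carboxypeptidase of mast cell granules, had 2340 normalized counts per kb in GMP, above 99.2% of genes, and 336.0 in MPP, above 90.8%. Hdc had 290.9 per kb in GMP (percentile 85.9) and 12.3 in MPP (percentile 15.0). Ms4a2 went with it, at 261.8 per kb in GMP (percentile 84.1) and 15.7 in MPP (percentile 18.5).

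Mcpt8, a basophil protease, had 260.9 normalized counts per kb in GMP and 53.0 in MPP, and Fcer1a had 103.0 and 13.1. Lmo4 had 265.8 per kb in GMP (percentile 84.4) and 108.2 in MPP (percentile 65.7). Gata2 was at a similar rank in both, with 189.8 per kb in GMP (percentile 77.2) and 202.1 in MPP (percentile 82.2). The other members were scarce. Cma1 had a mean of 18.7 in GMP and 9.14 in MPP, Csrp3 of 29.5 and 3.19, and Prss34, another basophil protease, of 6.12 and 0.659, in the authors' deposited tables. The values of Cma1, Csrp3 and Prss34 therefore rest on few reads.

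In GMP, 4 of the 10 members fell in Tet2KO and no member rose. Of 6 members tested, 4 were called, all of them lower, while 3.96% of all 11503 tested genes were called in either direction, 2.22% lower and 1.75% higher. Cma1, Csrp3, Gata2 and Lmo4 fell. Fcer1a and Mcpt8 did not pass, and Ms4a2, Cpa3 and Hdc carried no p-value. The members were chosen with results of these tables known, so their count is a description and not independent evidence. The median log2 fold change of the 6 tested members was -0.51, against 0.00025 over all tested genes. In a sorted bulk sample, fewer cells of a type and less RNA per cell cannot be told apart.

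**Figure D1:**
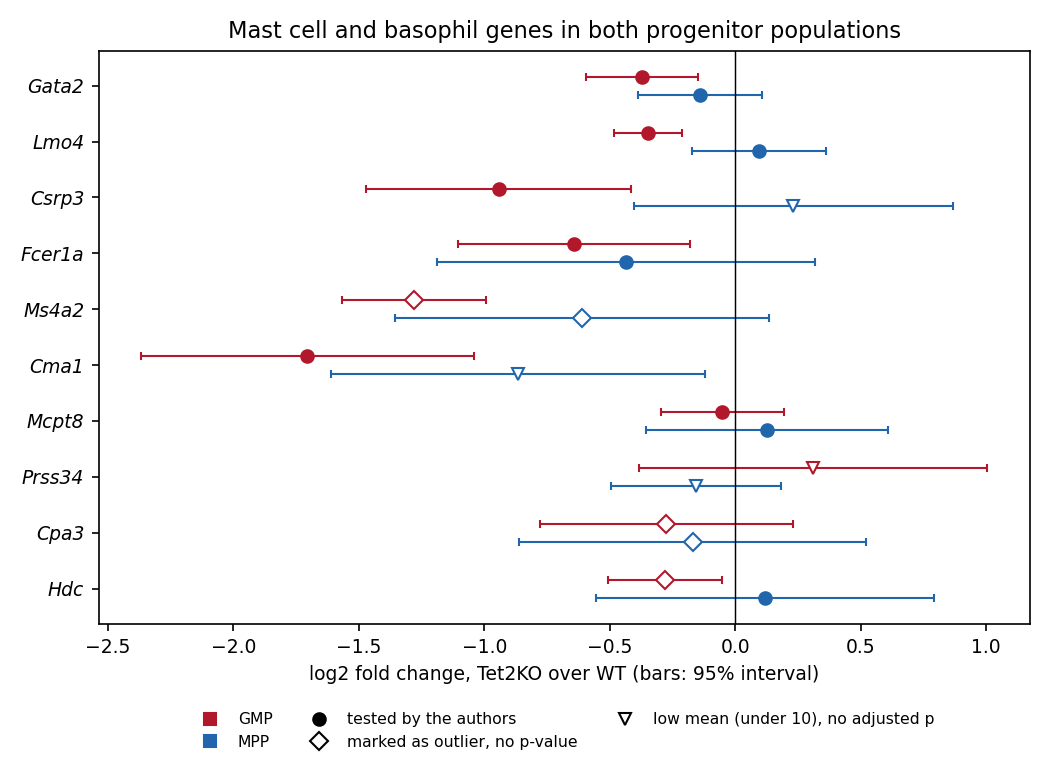
Log2 fold change of Tet2KO over WT for the 10 genes, in GMP (red) and MPP (blue), from 4 libraries per group; bars are 95% intervals from the SE. In GMP 9 of the 10 points lie below 0, from -1.71 for Cma1 to -0.05 for Mcpt8, with Prss34 at 0.31, and in MPP 6 lie below 0.

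Among the nuclear factors, Gata2 (chromosome 6, 88193891 to 88207032, plus strand, mm10) had a mean of 1025 in GMP and fell by 0.37 on the log2 scale (adjusted p = 0.0326, SE 0.114) in the authors' deposited table. That is 77.3% of the WT level, with a 95% interval of 66.2 to 90.2%. Lmo4 (chromosome 3, 144188530 to 144205220, minus strand) encodes a protein made of LIM domains that joins transcription factor complexes. It had a mean of 938.3 and fell by 0.35 (adjusted p = 8.21e-05, SE 0.0683) in the authors' deposited table, to 78.6% of the WT level (71.6 to 86.2%). Both falls were of like size, and the SE of Gata2 was 1.35 times the median of genes with a similar mean, whereas that of Lmo4 was 0.798 times it. Csrp3 (chromosome 7, 48830398 to 48848033, minus strand) encodes the muscle LIM protein, best known from heart and skeletal muscle. At a mean of only 29.5 it fell by 0.94 (adjusted p = 0.0200, SE 0.270) in the authors' deposited table, to 52.0% of the WT level (36.1 to 75.1%).

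Both IgE receptor chains specific to this receptor had values further below 0 than those of Gata2 and Lmo4, but neither was called. Fcer1a (chromosome 1, 173221284 to 173227214, minus strand), the alpha chain that binds IgE, had a log2 fold change of -0.64 (adjusted p = 0.0995, SE 0.236) in the authors' deposited table, with a 95% interval of -1.10 to -0.18. Ms4a2 (chromosome 19, 11615523 to 11623719, minus strand), the beta chain that amplifies the signal, had a mean of 736.4 and a log2 fold change of -1.28 (SE 0.146) in the authors' deposited table, and was marked as an outlier. Its value corresponds to 41.2% of the WT level (33.8 to 50.2%). Of the 11503 tested genes, 5 had a fold change at or below that of Ms4a2, and none had a fold change over SE as far from 0 as its -8.79. The mark takes away the p-value. Whether a single library carries the value was not tested.

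The gamma chain is shared with other Fc receptors. Its gene, Fcer1g, had a log2 fold change of 0.19 (adjusted p = 0.315, SE 0.1001) in GMP in the authors' deposited table. Of the 14 genes listed for IgE receptor signalling, among them Lyn, Syk, Btk and Plcg2, all were tested and 0 were called by DESeq2, with 7 below 0 and 7 above and a median of -0.01. Their lowest unadjusted p was that of Fcer1g, at 0.0531 in the authors' deposited table.

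The granule proteases were spread from the lowest fold change of the GMP table to values near 0. Cma1 (chromosome 14, 55941451 to 55944675, minus strand) encodes a mast cell chymase. It fell by 1.71 (adjusted p = 9.45e-05, SE 0.338) in the authors' deposited table, the lowest log2 fold change of all 11503 tested genes in GMP. That is 30.7% of the WT level (19.4 to 48.5%), at a mean of 18.7 normalized counts. Mcpt8 (chromosome 14, 56082166 to 56085273, minus strand), with a mean of 260.4, had a value of -0.05 (adjusted p = 0.899, SE 0.125) in the authors' deposited table. Its 95% interval of -0.30 to 0.19 does not reach the fold change of any called member.

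Cpa3 (chromosome 3, 20215620 to 20242181, minus strand), with a mean of 3549 the most abundant member, had a value of -0.28 (SE 0.257) in the authors' deposited table and was marked as an outlier. Its interval ran from -0.78 to 0.23. Prss34 (chromosome 17, 25298394 to 25300165, plus strand) had a value of 0.31 (SE 0.354) at a mean of 6.12, too low to be tested, in the authors' deposited table. It was the 1 member above 0 in GMP. Hdc (chromosome 2, 126593667 to 126619299, minus strand), with a mean of 1859, had a value of -0.28 (SE 0.116) and was also marked as an outlier in the authors' deposited table, with an interval of -0.51 to -0.05. Genes known mainly from basophils, Mcpt8 and Prss34, had values of -0.05 and 0.31, the latter untested. The mast cell chymase gene Cma1 was at -1.71, but Cpa3, also of mast cell granules, was at -0.28 with an interval that includes 0. A difference between mast cell and basophil genes was not tested. How reads shared by similar protease genes were counted is not given in the sources used here, so values within that family are less certain.

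**Figure D2:**
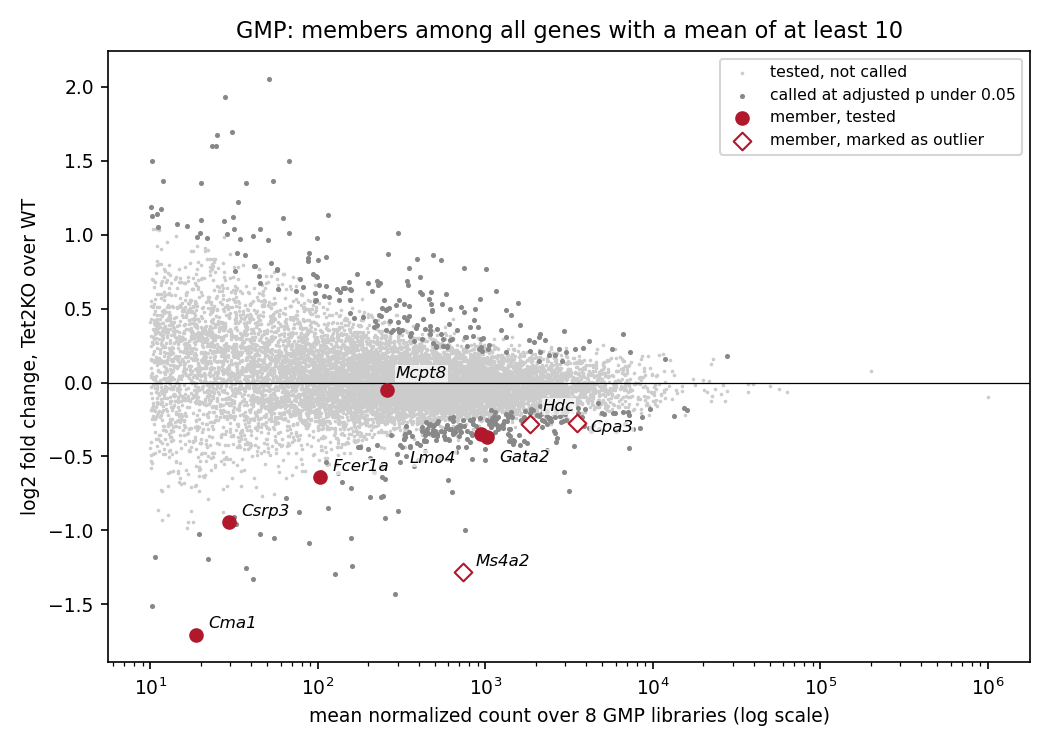
Mean normalized count (log scale) against the log2 fold change in GMP for genes with a mean of at least 10; light grey, tested and not called; dark grey, called; red circles, tested members, and open diamonds, members marked as outliers. Cma1 is the lowest point of the plot at -1.71, and Ms4a2 at a mean of 736.4 and -1.28 lies below the called genes of similar mean.

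The outlier mark removed the p-value of several members. In GMP it was on 3 of the 9 members with a mean of at least 10, and in MPP on 2 of 7, whereas it was on 2.66% of all such genes in GMP and 3.50% in MPP. The members marked in GMP had SEs that were wide for their level, and the same genes had wide SEs in MPP, where Hdc was not marked. The SE of Cpa3 was 3.69 times the median SE of genes with a similar mean (within 1.5 times) in GMP and 2.63 times in MPP. For Ms4a2 it was 1.61 and 1.29 times, and for Hdc 1.53 and 1.41 times. Mcpt8, by contrast, had an SE of 0.991 and 0.882 times the median. The SE comes from the authors' model, which takes in the spread between mice, and tables of means do not show which mice carry that spread.

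**Figure D3:**
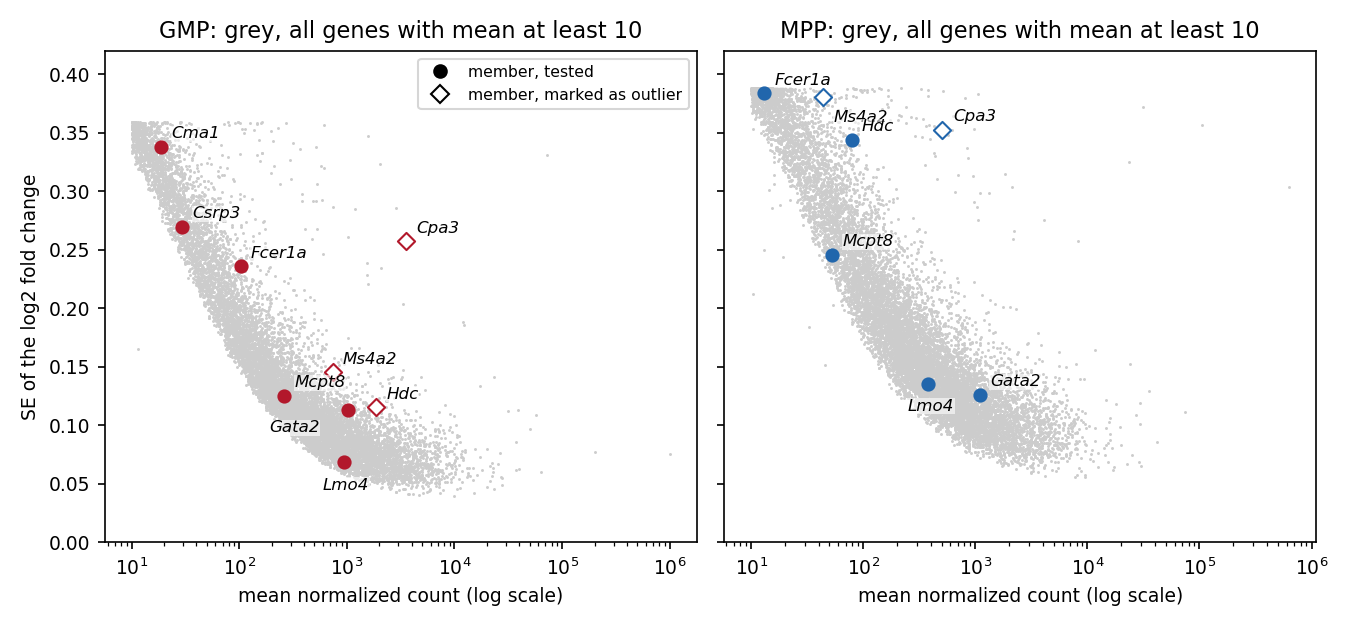
SE of the log2 fold change against the mean normalized count (log scale) in GMP (left) and MPP (right); grey points are all genes with a mean of at least 10, circles the tested members and open diamonds those marked as outliers. Cpa3 stands well above the band in both populations, with SEs of 0.257 and 0.353, while Lmo4 lies within it.

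In MPP, 0 of the 5 tested members were called by DESeq2, where 0.616% of all 11859 tested genes were called. An unadjusted p under 0.05 was found for 0 of the 5, against 9.72% of all tested genes. Gata2 had a log2 fold change of -0.14 (adjusted p = 0.782, SE 0.126), at a mean of 1091, in the authors' deposited table. Lmo4 had a value of 0.09 (adjusted p = 0.896, SE 0.136) in the authors' deposited table. These intervals, -0.39 to 0.11 for Gata2 and -0.17 to 0.36 for Lmo4, include 0. That of Gata2 also holds its GMP value, and that of Lmo4 does not. Fcer1a had a value of -0.44 (adjusted p = 0.779, SE 0.384), Mcpt8 of 0.13 (adjusted p = 0.927, SE 0.246) and Hdc of 0.12 (adjusted p = 0.959, SE 0.344) in the authors' deposited table.

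The members without an adjusted p in MPP had values of -0.61 for Ms4a2 (SE 0.380) and -0.17 for Cpa3 (SE 0.353), both marked as outliers, in the authors' deposited table. Cma1, at a mean of 9.14, had a value of -0.87 (SE 0.380) and an unadjusted p of 0.0226 in the authors' deposited table, the lowest value of the members in MPP as in GMP. Csrp3 and Prss34, with means under 4, had values of 0.23 (SE 0.324) and -0.16 (SE 0.172) there. SEs of most members were larger in MPP, where they were scarcer, so a change of the size of Gata2 in GMP could be missed for Fcer1a, Mcpt8 and Hdc.

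The change itself was compared between the populations as the difference of the log2 fold changes, GMP minus MPP, over the root of the summed squared SEs (two-sided normal test, Benjamini-Hochberg over 17660 genes). Of 7 members with a p-value in both tables, 0 passed, and 0.0453% of all genes did. Unadjusted p-values were under 0.05 for 2 of the 7, against 3.58% of all genes. These were Lmo4, with a difference of -0.44 (adjusted p = 0.917, SE 0.152), and Csrp3, with -1.17 (adjusted p = 0.949, SE 0.422). Gata2 had a difference of -0.23 (SE 0.170) and Cma1 of -0.84 (SE 0.508), both with an adjusted p above 0.99. The fall of these genes in GMP is therefore not shown to be particular to GMP. Independence of the 2 sets of errors was assumed, and some mice gave both populations.

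Other genes of the mast cell and basophil program came from lists that were written with earlier results of these data known. Of 13 further granule genes, 4 were tested in GMP and 2 were called, both lower, against 2.22% of all tested genes called lower. Srgn, the core protein of the proteoglycan that binds granule proteases, fell by 0.31 (adjusted p = 0.00796, SE 0.0815) and Ctsg, a neutrophil granule protease, by 0.31 (adjusted p = 0.00434, SE 0.0767) in the authors' deposited table. Both are abundant in granulocyte precursors too. The tryptase genes Tpsab1 and Tpsb2 and the chymase gene Mcpt4 had means of 0.368, 1.30 and 1.82 in GMP in the authors' deposited table, so these markers of mature connective tissue mast cells were close to 0. Gzmb had a value of -0.61 (SE 0.326) and an outlier mark there. Slc18a2, which loads histamine and other amines into vesicles, had values of -0.20 in GMP and 0.48 (adjusted p = 0.120, SE 0.151) in MPP in the authors' deposited tables.

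Of 11 mediator genes, 5 were tested in GMP and 1 was called, against 3.96% of all tested genes. Ptgs1, the constitutive cyclooxygenase of prostaglandin synthesis, fell by 0.48 (adjusted p = 0.000346, SE 0.102) in GMP, while its value was 0.09 (SE 0.179) in MPP, in the authors' deposited tables. Alox5, which starts leukotriene synthesis, had a value of -0.85 (SE 0.256) in GMP with an outlier mark, and -0.56 (SE 0.387) in MPP, in the authors' deposited tables. Of 12 growth factor and surface receptor genes, 9 were tested in GMP and 1 was called. It was called in the other direction, as were 1.75% of all tested genes. Csf2rb, the beta chain shared by the receptors for IL-3, IL-5 and GM-CSF, rose by 0.29 (adjusted p = 0.0187, SE 0.0808) in the authors' deposited table. Kit, the receptor for stem cell factor on which the cells were sorted and on which mast cells depend, had a value of 0.01 (SE 0.0608) at a mean of 6397 in GMP in the authors' deposited table. The IL-33 receptor gene Il1rl1 had a value of -0.38 (SE 0.310) with an outlier mark there. In MPP, 29 genes of the granule, mediator, receptor and signalling lists were tested and 0 were called by DESeq2. Of these 29, 4 had an unadjusted p under 0.05, against 9.72% of all tested genes. The lowest p of the 29 was that of Gab2, an adaptor in IgE receptor signalling, with a value of 0.46 (adjusted p = 0.108, SE 0.141) in the authors' deposited table.

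Of 12 genes that act with GATA2, 10 were tested in GMP and 1 was called, against 3.96% of all tested genes. Cbfa2t3, a corepressor of GATA and TAL1 complexes, rose by 0.39 (adjusted p = 0.00983, SE 0.104) in the authors' deposited table. In MPP, 11 were tested and 1 was called, against 0.616% of all tested genes. This was Runx1, which rose by 0.47 (adjusted p = 0.00551, SE 0.106) in the authors' deposited table. The values of Tal1, Lyl1, Lmo2 and Ldb1, with which GATA factors form complexes, ran from -0.09 to 0.11 in GMP in the authors' deposited table. Mitf, a factor of mast cell differentiation, had a value of -0.07 (SE 0.209), and Gata1 of -0.33 (SE 0.313) with an outlier mark, there.

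The 7 other myeloid transcription factors listed were all tested in GMP, where 3.96% of all tested genes were called. Of these 7, Irf8 rose by 0.50 (adjusted p = 0.00936, SE 0.131) and Gfi1 fell by 0.33 (adjusted p = 0.00420, SE 0.0828) in GMP in the authors' deposited table. Cebpa, needed for GMP, had a value of 0.12 (SE 0.0831) there. Gfi1 also fell in MPP, by 1.00 (adjusted p = 0.00743, SE 0.233), in the authors' deposited table. The relatives of Lmo4 and Csrp3, the LIM genes Lmo2, Ldb1, Csrp1 and Csrp2, had values between -0.09 and 0.11 in GMP. By DESeq2, 0 of the 4 were called or had an unadjusted p under 0.05, which 16.4% of all tested genes had. In MPP the value of Lmo2 was -0.30 (adjusted p = 0.0995, SE 0.0897) in the authors' deposited table. Of the other GATA family genes none was tested in GMP.

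**Figure D4:**
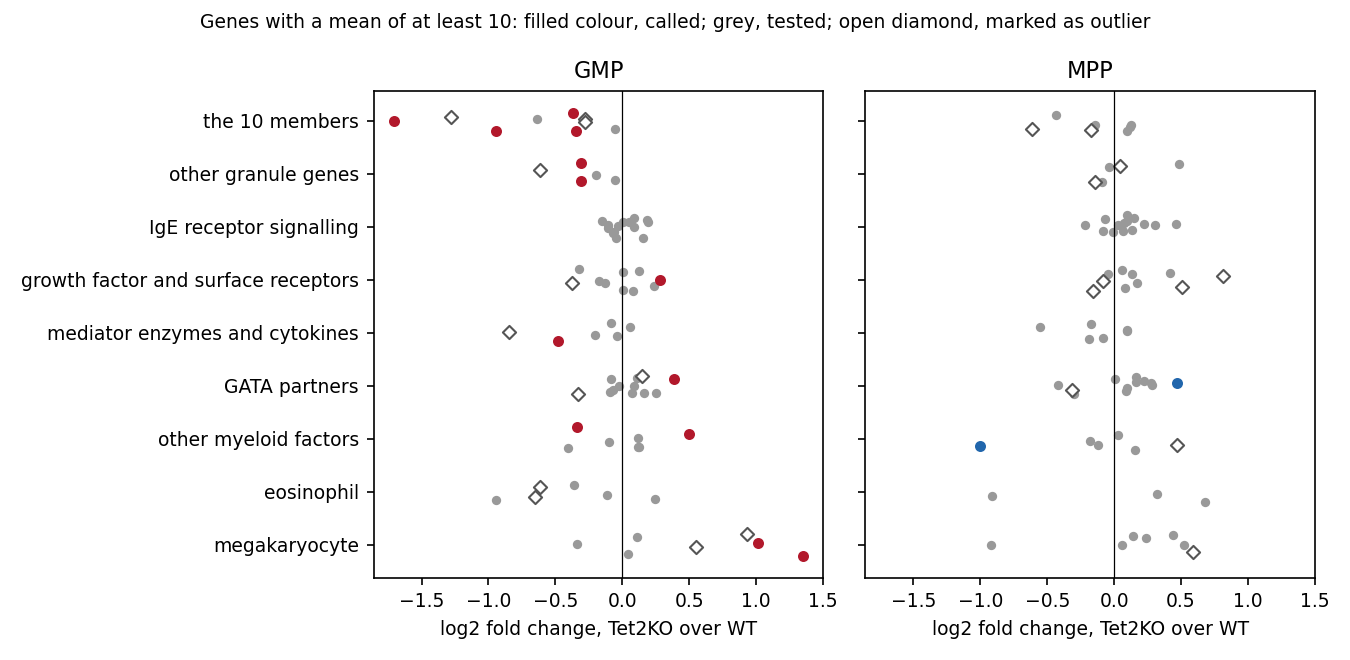
Log2 fold change of single genes with a mean of at least 10, by list, in GMP (left) and MPP (right); filled colour marks genes called at an adjusted p under 0.05, grey points tested genes and open diamonds genes marked as outliers, and the vertical spread within a list is for display. The members reach -1.71 in GMP, the 14 signalling genes lie between -0.15 and 0.19, and the megakaryocyte genes reach 1.35.

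Markers of other lineages that the gates could hold are given beside the members. Of 9 eosinophil genes, 4 were tested in GMP and 0 were called by DESeq2. Of the 4, 1 had an unadjusted p under 0.05, against 16.4% of all tested genes. The values of the 4 ran from -0.94 (Prg3, SE 0.346, adjusted p = 0.0972) to 0.24 in the authors' deposited table. Prg2 and Epx, granule proteins of eosinophils, had values of -0.65 and -0.61 with outlier marks in GMP there, and Ear2 had a mean of 0. Of 10 megakaryocyte genes, 5 were tested in GMP and 2 were called higher, against 1.75% of all tested genes. These were Pf4 (1.35, adjusted p = 0.00620, SE 0.345) and Vwf (1.01, adjusted p = 0.000145, SE 0.206), in the authors' deposited table. Of 12 erythroid genes in the tables, 2 were tested in GMP and 6 carried the outlier mark. The summed mean of the list was 533.5 in GMP for eosinophil, 1201 for megakaryocyte and 7036 for erythroid genes. In the erythroid sum, Tfrc, Car2 and Car1 had means of 2535, 2036 and 1578, while the globin genes Hba-a1 and Hba-a2 were at 0. The lists also differ in size, so the sums do not rank these cell types. The part of these cells in the values of the members was not tested.

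Neighbours on the chromosome were examined because several members lie in gene clusters. Cma1 and Mcpt8 belong to a cluster of mast cell protease, cathepsin G and granzyme genes on chromosome 14, and their lower ends lie 140.7 kb apart. Of 21 annotated genes across that stretch and its flanks, 14 had a mean under 10 in GMP and 6 were tested. Of the 6, 2 were called, Cma1 and Ctsg, both lower, against 3.96% of all tested genes called in either direction and 2.22% called lower. The stretch was chosen around members, so this count is a description. Mcpt8 lies between Cma1 and Ctsg, and granzyme genes lie beyond Ctsg. Khnyn and Sdr39u1, the genes with a mean of at least 10 nearest to Cma1 on its lower side, had values of 0.17 (SE 0.121) and -0.13 (SE 0.156) in GMP in the authors' deposited table. Of the remaining nearest genes, Mcpt-ps1 had a value of -0.43 (SE 0.351) at a mean of 3.71, and Cbln3, Cma2 and Gm5801 had means of 2.64, 0.127 and 1.42, in the authors' deposited table. Around Mcpt8, the means of Mcpt9, Mcpt2, Mcpt4, Gzme and Gzmd in GMP were between 0 and 1.82 in that table, so Ctsg was its one abundant neighbour.

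Ms4a2 lies in the Ms4a cluster on chromosome 19, next to Ms4a3, whose lower end is 13.97 kb away. Ms4a3, a gene of granulocyte-monocyte precursors, fell by 0.40 (adjusted p = 0.00394, SE 0.0976) in GMP in the authors' deposited table. Ms4a6c of the same family rose by 0.56 (adjusted p = 6.74e-09, SE 0.0812) there, and the neighbours Ms4a6b and Ms4a4d had values of 0.22 (SE 0.116) and 0.84 (SE 0.3001). The family thus held changes in both directions. Over all members, 60 neighbours (the 3 nearest genes on each side) were listed, of which 32 were tested in GMP. Of these 3 were called, all lower, Ms4a3, Ctsg and Rpn1, an endoplasmic reticulum glycosylation gene 109.4 kb from Gata2 that fell by 0.20 (adjusted p = 0.0101, SE 0.0544) in the authors' deposited table. The median of the 32 was -0.05, and 19 of the 32 lay below 0, against 49.9% of all tested genes. An unadjusted p under 0.05 was found for 9 of the 32, against 16.4% of all tested genes. Of all tested genes in GMP, 3.96% were called, 2.22% lower. In MPP, 29 of the neighbours were tested and 0 were called by DESeq2. Of these, 3 had an unadjusted p under 0.05, against 9.72% of all tested genes.

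**Figure D5:**
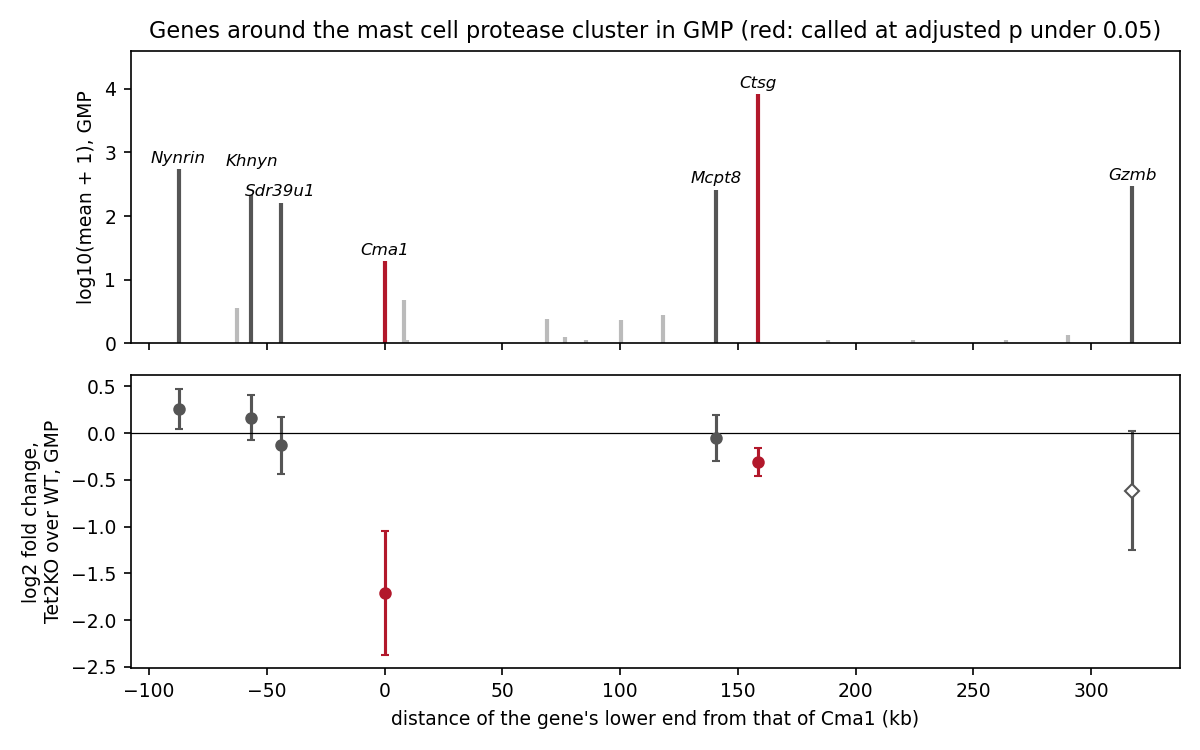
Genes around the mast cell protease cluster on chromosome 14 in GMP, by distance in kb from the lower end of Cma1; the upper panel gives log10 of the mean normalized count plus 1, and the lower panel the log2 fold change of genes with a mean of at least 10, with 95% intervals. Cma1 (-1.71) and Ctsg (-0.31) are called and drawn in red, Mcpt8 between them lies at -0.05, and Gzmb (open diamond, marked as an outlier) at -0.61.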

How the data were processed

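Per the labels' protocols, 2 ng of RNA from each mouse's sorted cells was amplified, and 75 bp were read from one end. The submitters' processing notes name STAR, DESeq2 and the build mm10. No version, read counter or annotation is given in the sources used here. Each deposited table holds a mean normalized count (a signal per gene), a log2 fold change, its SE (read as a score column), a p-value and an adjusted p-value, per the file headers. No values per library are in them, so depth per library is unknown and no new fit over samples was made. Recomputing the adjusted p-values from the deposited p-values over the tested genes matched them within 2.4e-05. In both tables, 27 symbols each had become dates and were used only in the adjustment. Whether fold changes were shrunken is not given in the sources used here, and SEs were small at the lowest means, so changes of scarce genes may be understated. The p-values set the difference between genotypes against the error of the authors' model, and the spread between mice was not measured here.

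Members and lists were chosen with earlier results of these data known. One gene of the megakaryocyte list is not reported here and is in none of that list's counts. Of each further list, up to 4 called genes per population were named, or up to 2 of lowest p as values, with the called ones among the 3 nearest genes on each side of a member (all of them for Cma1 and Mcpt8); a few uncalled genes of each list and Ms4a4d were named after their values were seen. Intervals are 95% normal intervals from the SE and cover the authors' model error. Exon lengths and positions come from GENCODE M21 (GRCm38). Spi1, Siglecf and Hbb-bs were read under older symbols. The difference test and the recomputed adjustment, not the fit by the authors, were tested on simulated data. Alternatives were another threshold, recentring, an empirical null, other filters on the mean, outlier-marked genes included and correlated errors. Software was Python 3.11.15 with scipy 1.17.1, pandas 2.3.3, matplotlib 3.10.9 and numpy 2.4.6.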

Additional observations from a re-analysis of the deposited data

How the results depend on the processing

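The 4 calls among members in GMP became 2 under each of 3 alternatives. With an adjusted p threshold of 0.01 and with an empirical null (statistics divided by their robust spread of 1.35), Cma1 and Lmo4 were called and Csrp3 and Gata2 were not (adjusted p = 0.409 and 0.477 under the empirical null). With a minimum mean of 50, Cma1 and Csrp3 were left out and Gata2 and Lmo4 were called. Without a filter on low means Gata2 had an adjusted p of 0.0543 and the other 3 were called. After recentring on the median the same 4 were called. With outlier-marked genes included and p recomputed from the fold change over its SE, Ms4a2 was called as well (adjusted p = 1.84e-14), for which the outlier mark gives reason for caution. The alternatives left the fold changes as deposited, shifted them by the median or scaled them, so the signs of the called members were not put to a test. The count of called members stayed at 0 in MPP and for the difference between populations under every alternative run, among them correlated errors (0.346). No paired analysis was possible because the deposited tables hold no values per library, and for the same reason leaving out a mouse was not run. Over all tested genes, the 456 calls in GMP became 198 at a threshold of 0.01 and 72 under the empirical null, the 73 in MPP became 36 and 18, and the 8 for the difference became 0 at 0.01 and 49 with correlated errors. The cause was not tested. Cma1, Csrp3 and Prss34 rest on few reads, and the SE of Cpa3 was wide although it was abundant.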
